A study of Mus musculus with 6 samples.

Results

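MicroRNA and small nucleolar RNA (snoRNA) gene loci were examined in poly(A)-selected RNA of sorted mouse islet cells. A locus was taken where its symbol begins with Mir, Snora or Snord followed by a number and where it reached 1 RPKM (reads scaled to gene length and library size) in at least 2 of the 4 beta and delta cell libraries. Of 1170 such loci among the 46959 symbols of the table, 83 met this, 50 microRNA loci and 33 snoRNA loci. A further 275 had some value above 0 without reaching the minimum, and 812 were at 0 in all 6 libraries. The loci were thus selected on their measured beta and delta levels, which are given as a description, while the transdifferentiated libraries had no part in the choice. Low beta values entered the choice of the 30 loci that met the minimum through the delta libraries alone. Their differences from beta cells are therefore a description. On the second highest of the 4 values used, Mir344b at 1.01, Snord88c at 1.03 and Snora23 at 1.04 RPKM fell just inside, and Snora78 at 0.997, Mir6403 at 0.989 and Mir6989 at 0.981 RPKM just outside.

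All animals were adult mice with 3 transgenes: the nuclear insulin reporter mIns1-H2b-mCherry, Sst-cre, and a floxed YFP allele that Cre activity switches on, so that cells in which the somatostatin promoter was or had been active carry YFP. Transdifferentiated cells are the cells sorted for both mCherry and YFP, beta cells those with mCherry, and delta cells those with YFP. Each of these 3 groups has 2 libraries, 1 from a pool of 10 to 12 males and 1 from a pool of 10 to 12 females, so sex and pool cannot be told apart, and the p-values below measure only the spread between such pools. Wherever a pair of values is given, the male pool stands first. The islets of all groups were kept overnight in medium with 5.5 mM glucose and dispersed with trypsin before sorting. The submitters' design text once gives alpha cells as the origin of the cells with both colours, but delta cells are given by the sample labels, by the title and by the use of Sst-cre. The comparisons ask how cells with an active insulin reporter and a past or present somatostatin promoter stand against beta cells and against delta cells.

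A microRNA is cut from a hairpin in its primary transcript, first by Drosha with Dgcr8 in the nucleus and then by Dicer1 in the cytoplasm, and the mature strand pairs with target messenger RNAs inside an Argonaute protein, mainly through its seed. C/D box snoRNAs guide the methylation of ribose in ribosomal RNA, and H/ACA box snoRNAs guide pseudouridine formation. Many of both kinds lie in introns of longer genes and are released when the intron is processed. In islets, miR-375 and miR-7 are known as abundant microRNAs that act on insulin secretion and beta cell growth. Mature microRNAs and most snoRNAs have no poly(A) tail, and a mature microRNA is shorter than the fragments of such a library. The values are therefore reads that overlapped an annotated locus, from a precursor, an unspliced intron or an overlapping transcript, and not levels of the mature RNA. In bulk samples, fewer cells of a type and less RNA per cell cannot be told apart.

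Mature sequences were found for 48 of the 50 microRNA loci in the RefSeq table (build GRCm38.p6), 76 sequences with 71 distinct seeds. The following come from loci with larger differences, from the Mir344 cluster or from the miR-7 loci. Capitals mark the seed, bases 2 to 8, and the first 3 share a seed and come from the Mir344 cluster of chromosome 7.
mmu-miR-344-5p (locus Mir344-2): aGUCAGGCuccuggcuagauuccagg
mmu-miR-344g-5p (locus Mir344g): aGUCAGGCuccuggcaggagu
mmu-miR-344b-5p (locus Mir344b): aGUCAGGCuccuggcuaaaguuc
mmu-miR-344-3p (locus Mir344-2): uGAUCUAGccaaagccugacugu
mmu-miR-186-5p (locus Mir186): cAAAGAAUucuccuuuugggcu
mmu-miR-5125 (locus Mir5125): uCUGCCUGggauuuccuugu
mmu-miR-335-5p (locus Mir335): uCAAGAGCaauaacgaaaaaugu
mmu-miR-421-5p (locus Mir421): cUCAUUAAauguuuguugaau
mmu-miR-7a-5p (locus Mir7-1): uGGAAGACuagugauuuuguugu
mmu-miR-7b-5p (locus Mir7b): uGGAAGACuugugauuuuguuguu

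The 2 miR-7 sequences share a seed as well. Across the members 4 seeds belonged to more than 1 locus: GUCAGGC of the 3 miR-344 5p strands, GGAAGAC of miR-7a-5p and miR-7b-5p, AACAGUC of miR-132-3p and miR-212-3p, and UCACAGU of miR-27a-3p and miR-27b-3p.

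The snoRNA loci below, from the GENCODE M21 transcripts (build GRCm38), are the pair with the largest increases over beta cells among snoRNA loci, the snoRNA locus of highest mean level, and an H/ACA locus higher than in beta cells. Capitals mark a C box core (TGATGA, searched in the first 20 bases), a D box (CTGA, searched in the last 20) or an ACA (searched in the last 8), on the RNA strand only.
Snord69: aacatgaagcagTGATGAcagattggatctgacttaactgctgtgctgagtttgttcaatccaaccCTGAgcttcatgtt
Snord19: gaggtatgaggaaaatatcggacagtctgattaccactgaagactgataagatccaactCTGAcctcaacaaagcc
Snord104: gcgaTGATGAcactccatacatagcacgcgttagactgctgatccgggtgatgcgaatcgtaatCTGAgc
Snora31: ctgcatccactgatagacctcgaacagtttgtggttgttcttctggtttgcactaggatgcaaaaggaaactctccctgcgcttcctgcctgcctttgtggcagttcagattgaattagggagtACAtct

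Of the 25 Snord members, 15 (60%) held TGATGA in that window and 24 (96%) held CTGA, against 70.4% and 98.0% of the 98 Snord loci of the annotation. All 8 Snora members held ACA, as did 95% of the 40 Snora loci of the annotation. Among microRNA loci the shares were 0.343% for TGATGA, 9.36% for CTGA and 15.8% for ACA. No match says only that these letters are not in the window.

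Depth limits what can be said of loci this short. The members are 56 to 184 bases long (median 81), and the libraries held 12533216 and 10900304 assigned reads in transdifferentiated cells, 21566758 and 20454845 in beta cells and 16967084 and 15678931 in delta cells. One read on a locus of 80 bases was worth 0.997 and 1.15 RPKM in transdifferentiated cells, 0.580 and 0.611 RPKM in beta cells and 0.737 and 0.797 RPKM in delta cells. The median member had 20 reads over the 6 libraries, 39 members had fewer than 20, and 5 had at least 100. Whole reads could be recovered from every member value, and each main value below is given with them. Intervals of pooled-read ratios are exact 95% intervals, cover counting error only, and treat reads as independent molecules although PCR copies were not marked.

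Beta cell markers were highest in beta cells and delta cell markers in delta cells. The sums of alpha cell markers and of Ppy with Pyy were also highest in delta cells. The summed level of 6 beta cell markers led by Ins1 and Ins2 was 85832 and 93723 RPKM in transdifferentiated cells, 309279 and 220791 RPKM in beta cells, and 1430 and 1754 RPKM in delta cells. The sum of 4 delta cell markers led by Sst was 13497 and 13581 RPKM in transdifferentiated cells, 79.6 and 96.5 RPKM in beta cells, and 51759 and 60657 RPKM in delta cells. The sum of 4 alpha cell markers led by Gcg was 1794 and 2588 RPKM in transdifferentiated cells, 457 and 637 RPKM in beta cells, and 15135 and 16504 RPKM in delta cells, and that of Ppy with Pyy was 11877 and 12041 RPKM in transdifferentiated cells, 802 and 558 RPKM in beta cells, and 36498 and 37076 RPKM in delta cells. Summed acinar markers were at 2162 and 141 RPKM in transdifferentiated cells, 7857 and 299 RPKM in beta cells and 707 and 519 RPKM in delta cells, with Ptf1a at 0 in 4 of the 6 libraries. Ductal, endothelial, immune and mesenchymal sums stayed between 0.0480 and 114 RPKM in all libraries. The part of these markers in the results on the loci was not tested.

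Mir344-2 (chr7:61940027-61940106, minus strand, GRCm38, in an intron of the non-coding gene A330076H08Rik) had the largest increase of all members over beta cells. It was at 20.9 and 40.1 RPKM (21 and 35 reads) in transdifferentiated cells, against 0.580 and 0.611 RPKM (1 read each) in beta cells and 13.3 and 13.6 RPKM (18 and 17 reads) in delta cells. Both transdifferentiated libraries lay above all 4 others, and beta cells were at the level of a single read. The log2 fold change on the scale of RPKM plus 1 was 4.24 ± 0.27 against beta cells (SE, n = 2 libraries a group, limma), and the pooled-read ratio was 50.2 (13.3 to 425). Mir344-2 met the level minimum through its delta values alone. Low beta values thus entered the choice, and its difference from beta cells is a description. Against delta cells the log2 fold change was 1.06 ± 0.27 (limma, Benjamini-Hochberg adjusted p = 0.048) and the ratio 2.23 (1.44 to 3.5). The call against delta cells was lost without the female transdifferentiated pool (log2 fold change 0.61, limma adjusted p = 0.083), without any 1 of the beta or delta libraries (0.071 to 0.19), after median-of-ratios scaling (0.054), without the level filter (0.15) and at a pseudocount of 0.1 RPKM (0.061).

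Mir344g, from the same cluster (chr7:61982289-61982359, minus strand, 70 of its bases within an exon of A330076H08Rik), was the next highest microRNA member after Mir6236 and Mir5125 in transdifferentiated cells. It had 37.1 and 64.6 RPKM (33 and 50 reads) in transdifferentiated cells, 9.80 and 13.1 RPKM (15 and 19 reads) in beta cells, and 29.9 and 17.1 RPKM (36 and 19 reads) in delta cells. The transdifferentiated values were above those of both other groups, and it rose against beta cells by a log2 fold change of 2.02 ± 0.33 (limma adjusted p = 0.0032). Against delta cells the log2 fold change of 1.08 ± 0.33 did not pass (limma adjusted p = 0.090). Mir344b had 3 reads in all, 2 and 1 in delta cells and none elsewhere. It was selected on those delta values alone, so its place among the loci lower than in delta cells is a description, and the counting interval of its ratio reaches from 0 to 3.37. The remaining loci of the cluster, which are not members, had few reads or none. Mir344i stood at 1.81 and 10.4 RPKM in transdifferentiated cells, 0.527 and 1.11 RPKM in beta cells and 0.670 and 0 RPKM in delta cells, and Mir344c at 0 and 3.99 RPKM in transdifferentiated cells, 0 in both beta libraries, and 0.641 and 1.39 RPKM in delta cells.

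**Figure D1:**
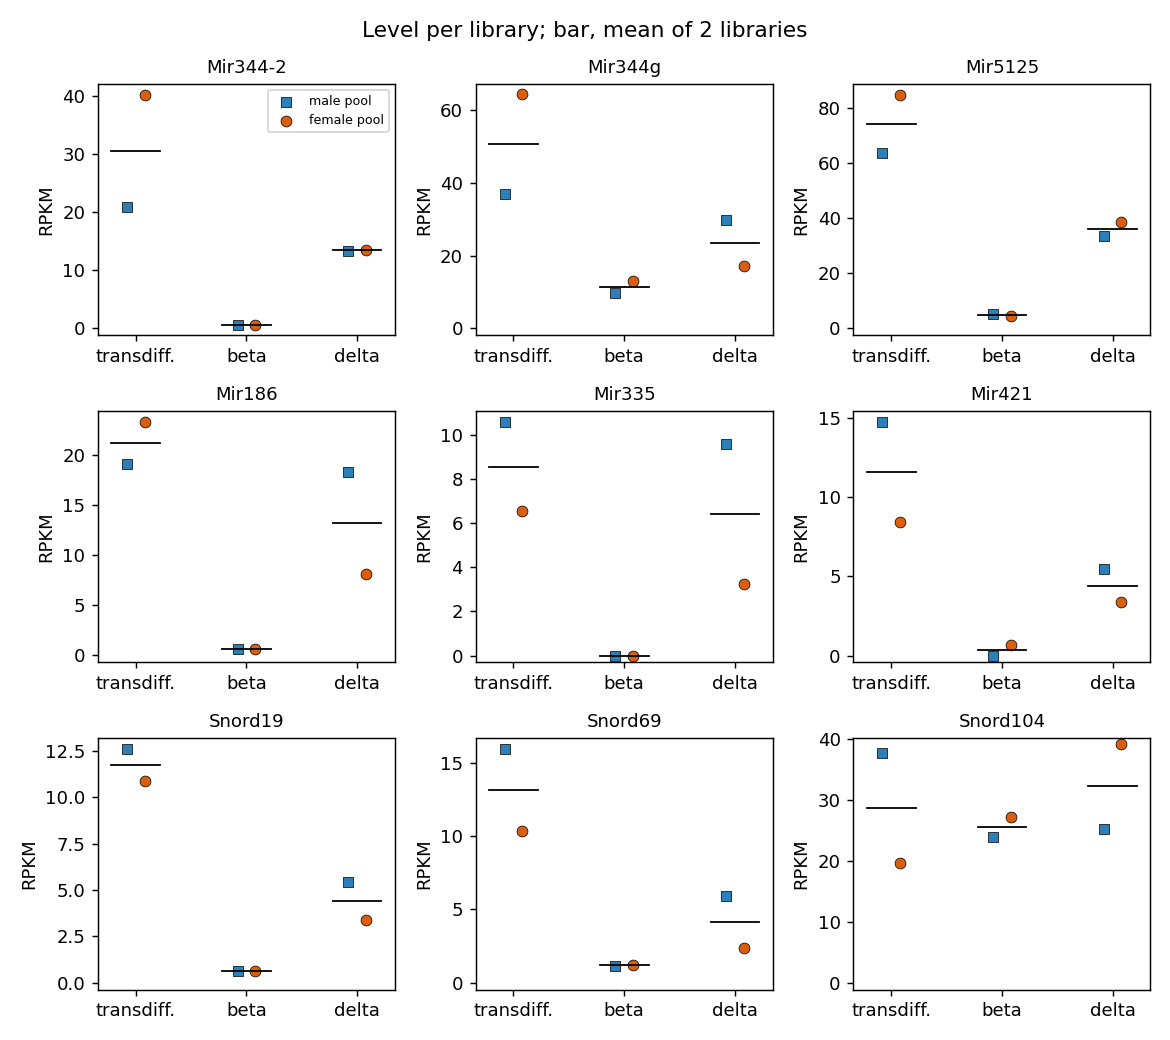
Level in RPKM of 9 loci in each library. Squares are male pools, circles female pools and bars the mean of 2 libraries, with transdifferentiated cells left of beta and delta cells. Mir344-2, Mir5125, Mir186, Mir335, Mir421, Snord19 and Snord69 sit near 0 or at a few RPKM in beta cells, and the groups of Snord104 overlap.

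Mir5125 lies in an intron of Srrm2, which encodes a splicing factor of nuclear speckles (chr17:23823291-23823369, plus strand), and was the best covered of the loci that rose against both populations. It had 63.6 and 84.8 RPKM (63 and 73 reads) in transdifferentiated cells, 5.28 and 4.33 RPKM (9 and 7 reads) in beta cells, and 33.6 and 38.8 RPKM (45 and 48 reads) in delta cells. The 3 groups did not overlap, with delta cells in between. Its log2 fold change was 3.69 ± 0.17 against beta cells (limma adjusted p = 8.0e-05; pooled-read ratio 15.2, 9.05 to 27.4) and 1.01 ± 0.17 against delta cells (limma adjusted p = 0.012; ratio 2.04, 1.55 to 2.68). The delta call was lost without the female transdifferentiated pool (limma adjusted p = 0.067) or without either delta pool (0.076 and 0.056). Srrm2 itself was at 85.8 and 90.2 RPKM in transdifferentiated cells, 25.4 and 40.4 RPKM in beta cells, and 80.2 and 67.4 RPKM in delta cells. Its log2 fold change was 1.43 ± 0.21 against beta cells (limma adjusted p = 0.0023) and 0.26 ± 0.21 against delta cells (limma adjusted p = 0.51).

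Mir186, in an intron of the RNA-binding protein gene Zranb2 (chr3:157544279-157544349, plus strand), had 19.1 and 23.3 RPKM (17 and 18 reads) in transdifferentiated cells, 0.653 and 0.689 RPKM (1 read each) in beta cells, and 18.3 and 8.08 RPKM (22 and 9 reads) in delta cells. Its log2 fold change against beta cells was 3.72 ± 0.32, with a pooled-read ratio of 31.4 (8.06 to 269). Mir186 met the level minimum through its delta values alone, so its difference from beta cells is a description. Against delta cells the log2 fold change was 0.74 ± 0.32 (limma adjusted p = 0.20). Zranb2 rose against beta cells by a log2 fold change of 1.67 ± 0.13 (limma adjusted p = 0.00025).

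Mir335 (chr6:30741299-30741396, plus strand) lies in an intron of the imprinted gene Mest. It had 10.6 and 6.55 RPKM (13 and 7 reads) in transdifferentiated cells, none in beta cells, and 9.62 and 3.25 RPKM (16 and 5 reads) in delta cells. The beta libraries gave no read, and the transdifferentiated and delta values overlapped. With 3 reads assumed for the beta group, the pooled-read ratio to beta cells would be 12.0, a point value and not a lower bound. Mir335 met the level minimum through its delta values alone, so its difference from beta cells is a description. The fit across all genes did not call Mir335 against delta cells (log2 fold change 0.48 ± 0.41, limma adjusted p = 0.53). Mest was at 25.1 and 25.1 RPKM in transdifferentiated cells, 0.353 and 0.434 RPKM in beta cells, and 62.5 and 69.8 RPKM in delta cells. Mest thus rose against beta cells (log2 fold change 4.23 ± 0.11, limma adjusted p = 1.4e-05) and fell against delta cells (-1.36 ± 0.11, limma adjusted p = 0.0010).

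Mir421 and Mir374b share introns of Ftx, a non-coding RNA gene of the X-inactivation centre. Mir421 (chrX:103572921-103572996, minus strand) had 14.7 and 8.45 RPKM (14 and 7 reads) in transdifferentiated cells, 0 and 0.643 RPKM (0 and 1 read) in beta cells, and 5.43 and 3.36 RPKM (7 and 4 reads) in delta cells. Its log2 fold change was 3.25 ± 0.34 against beta cells, and its increase over delta cells, 1.2 ± 0.34, did not pass (limma adjusted p = 0.067). Mir421 and Mir374b met the level minimum through their delta values alone, so their differences from beta cells are a description. Mir374b had 4 reads in each transdifferentiated and each delta library and none in beta cells. It overlaps Mir374c, annotated at the same place, and counting that ignores strand could not part them.

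In the imprinted Dlk1-Dio3 region of chromosome 12, the maternal allele gives the non-coding RNAs Meg3, Rian and Mirg. There 3 microRNA members rose against beta cells, as did those RNAs. Of loci in the region that are not members, Mir370 and Mir382 did not pass (limma adjusted p = 0.087 and 0.095). Mir3070a, not a member either, was called higher (log2 fold change 1.45 ± 0.34, limma adjusted p = 0.013). It had 3 and 1 reads in transdifferentiated cells, none in beta cells and 0 and 1 in delta cells. Mir1188, in an intron of Rian, had 5.98 and 8.41 RPKM (9 and 11 reads) in transdifferentiated cells, 0.386 and 0.407 RPKM (1 read each) in beta cells, and 7.86 and 5.85 RPKM (16 and 11 reads) in delta cells. Its log2 fold change was 2.54 ± 0.19 against beta cells. Its neighbour Mir341 had 10 and 1 reads in transdifferentiated cells, none in beta cells and 3 and 5 in delta cells, so that the male pool gave most of its transdifferentiated reads. Mir453, in Mirg, had 5 and 2 reads in transdifferentiated cells, 1 and 0 in beta cells and 5 and 2 in delta cells. Limma called all 3 against beta cells and none against delta cells (limma adjusted p from 0.64 to 0.89). All 3 met the level minimum through their delta values alone, so their differences from beta cells are a description. Rian was at 52.1 and 52.2 RPKM in transdifferentiated cells, 10.9 and 16.8 RPKM in beta cells and 48.0 and 36.7 RPKM in delta cells, and Meg3 at 121 and 129 RPKM in transdifferentiated cells, 6.05 and 8.60 RPKM in beta cells, and 110 and 69.5 RPKM in delta cells.

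Further microRNA loci with few reads also rose against beta cells. Mir378b, which lies opposite Msi2 on the other strand, had 6 and 4 reads in transdifferentiated cells, none in beta cells and 13 and 4 in delta cells. Mir7669, in an intron of Ubap2l, had 3 reads in each transdifferentiated library, none in beta cells and 2 in each delta library. Its log2 fold change was 2.44 ± 0.13 against beta cells, and it passed against delta cells (0.80 ± 0.13, limma adjusted p = 0.010). Mir378b and Mir7669 met the level minimum through their delta values alone, so their differences from beta cells are a description. Mir1898, in an intron of Zfr, had 10.6 and 5.53 RPKM (11 and 5 reads) in transdifferentiated cells, 0 and 1.77 RPKM (0 and 3 reads) in beta cells, and 9.94 and 9.22 RPKM (14 and 12 reads) in delta cells, and rose against beta cells (log2 fold change 2.39 ± 0.47, limma adjusted p = 0.0065). The 10 reads of Mir7669 give a ratio to delta cells whose counting interval runs from 0.496 to 10.1, and its delta call was lost without the female transdifferentiated pool (limma adjusted p = 0.061), without either delta pool (0.061 and 0.060) and at a pseudocount of 0.1 RPKM (0.052).

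The miR-7 loci, of microRNAs known from islets, had reads in all 3 populations. Mir7-1, in an intron of Hnrnpk, had 5.91 and 4.25 RPKM (8 and 5 reads) in transdifferentiated cells, 0.859 and 0.905 RPKM (2 reads each) in beta cells, and 3.27 and 2.36 RPKM (6 and 4 reads) in delta cells. Its log2 fold change was 1.68 ± 0.18 against beta cells, and it lay just outside the threshold against delta cells (0.67 ± 0.18, limma adjusted p = 0.062). Mir7b had 3 and 2 reads in transdifferentiated cells, 1 and 0 in beta cells and 2 in each delta library (log2 fold change against beta cells 1.28 ± 0.20). Mir7-1 and Mir7b met the level minimum through their delta values alone, so their differences from beta cells are a description. Mir7-2, not a member, had 3 and 1 reads in transdifferentiated cells, 1 and 0 in beta cells and 2 and 0 in delta cells. It did not pass against beta cells (log2 fold change 1.10 ± 0.44, limma adjusted p = 0.075). Mir132 and Mir212, whose 3p arms share a seed, did not pass against beta cells (limma adjusted p = 0.69 and 0.12) or delta cells (0.32 and 0.99). Mir132 had 4 and 0 reads in transdifferentiated cells, 0 and 3 in beta cells and 8 and 5 in delta cells, and Mir212 had 2 and 4 in transdifferentiated cells, 4 and 1 in beta cells and 4 in each delta library. Mir375 had 1 read in all, in the female transdifferentiated pool, and Mir141, Mir429, Mir184, Mir204, Mir211, Mir29a, Mir338 and the Mir124a and Mir9 loci were at 0 in all 6 libraries. Among microRNAs of epithelial cells, Mir200c was at 1.16 and 2.66 RPKM in transdifferentiated cells, 0 and 0 RPKM in beta cells and 0.854 and 0 RPKM in delta cells.

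The locus with most reads was Mir6236 (chr9:110281287-110281409, plus strand, outside any other gene), which took between 57.7% and 81.7% of all member reads in a library. It had 511 and 1718 RPKM (788 and 2303 reads) in transdifferentiated cells, 237 and 251 RPKM (628 and 631 reads) in beta cells, and 724 and 578 RPKM (1511 and 1114 reads) in delta cells. Both transdifferentiated values were above beta cells, whereas one lay below and the other above the delta values. The log2 fold change against beta cells was 1.94 ± 0.50 (limma adjusted p = 0.017) and against delta cells 0.53 ± 0.50 (limma adjusted p = 0.56). Without Mir6236, the microRNA members summed to 23.8 and 27.1 RPM (reads scaled to library size alone) in transdifferentiated cells, 4.54 and 5.23 RPM in beta cells, and 20.2 and 16.0 RPM in delta cells. Low beta values entered the choice of some members, so these sums are a description.

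Snord19 and Snord69 were the snoRNA loci with the largest increases over beta cells. Both lie within annotated exon sequence of Gnl3, a nucleolar GTPase gene (chr14:31016206-31016281 and chr14:31014287-31014366, minus strand), so their reads and those of Gnl3 transcripts cannot be told apart. Snord19 had 12.6 and 10.9 RPKM (12 and 9 reads) in transdifferentiated cells, 0.610 and 0.643 RPKM (1 read each) in beta cells, and 5.43 and 3.36 RPKM (7 and 4 reads) in delta cells. Snord69 had 16.0 and 10.3 RPKM (16 and 9 reads) in transdifferentiated cells, 1.16 and 1.22 RPKM (2 reads each) in beta cells, and 5.89 and 2.39 RPKM (8 and 3 reads) in delta cells. The transdifferentiated libraries were above all others for both loci.

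Snord19 met the level minimum through its delta values alone, so its difference from beta cells is a description. Against beta cells the log2 fold change was 2.97 ± 0.19 for Snord19 and 2.66 ± 0.34 for Snord69 (limma adjusted p = 0.0013 for Snord69). Against delta cells it was 1.26 ± 0.19 for Snord19 (limma adjusted p = 0.0091), a call lost without the male transdifferentiated pool (0.058). Snord69 rose against delta cells by 1.52 ± 0.34 (limma adjusted p = 0.032) and lost the call without any 1 library other than the male delta pool (0.056 to 0.16), its log2 fold change being 1.01 without the female delta pool. Gnl3 was at 42.8 and 37.6 RPKM in transdifferentiated cells, 25.2 and 25 RPKM in beta cells, and 29.1 and 24.9 RPKM in delta cells, with log2 fold changes of 0.65 ± 0.12 against beta cells (limma adjusted p = 0.0054) and 0.56 ± 0.12 against delta cells (limma adjusted p = 0.032). The first of these Gnl3 calls was lost after median-of-ratios scaling (log2 fold change 0.26, limma adjusted p = 0.11), and the second without any 1 transdifferentiated or delta library (0.083 to 0.28).

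Other C/D box loci also rose against beta cells. Snord71, in an intron of Ap1g1, had 6.57 and 5.40 RPKM (7 and 5 reads) in transdifferentiated cells, 0.546 and 0 RPKM (1 and 0 reads) in beta cells, and 5.55 and 6.75 RPKM (8 and 9 reads) in delta cells. Its log2 fold change against beta cells was 2.48 ± 0.22. Snord71 met the level minimum through its delta values alone, so its difference from beta cells is a description. Snord37, in an intron of the translation elongation factor gene Eef2, had 6.23 and 15.8 RPKM (5 and 11 reads) in transdifferentiated cells, 0.724 and 1.53 RPKM (1 and 2 reads) in beta cells, and 3.68 and 3.99 RPKM (4 reads each) in delta cells. Its log2 fold change against beta cells was 2.40 ± 0.38 (limma adjusted p = 0.0028), while Eef2 fell by 0.55 ± 0.12 on the log2 scale (limma adjusted p = 0.0089), a call lost without the male transdifferentiated pool (0.067). Snord104, the best covered snoRNA member and outside any other gene, had 37.6 and 19.7 RPKM (33 and 15 reads) in transdifferentiated cells, 23.8 and 27.2 RPKM (36 and 39 reads) in beta cells, and 25.3 and 39.2 RPKM (30 and 43 reads) in delta cells. Its groups overlapped, and neither fold change passed (limma adjusted p = 0.82 and 0.75). The counting interval of its ratio to beta cells was 0.782 to 1.67. Snord100, in Rps12, and Snord65, in 2410006H16Rik, did not pass against beta cells either (log2 fold change 1.24 ± 0.57 and 0.78 ± 0.28, limma adjusted p = 0.11 and 0.054).

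H/ACA box loci were called higher than in beta cells in 7 of 8 cases, the exception being Snora23, beside 42.5% of all genes. Snora31, in an intron of Tpt1 (chr14:75847905-75848034, plus strand), had 17.2 and 13.4 RPKM (28 and 19 reads) in transdifferentiated cells, 3.21 and 3.38 RPKM (9 reads each) in beta cells, and 11.8 and 7.85 RPKM (26 and 16 reads) in delta cells. Its log2 fold change was 1.91 ± 0.20 against beta cells (limma adjusted p = 0.00066) and 0.61 ± 0.20 against delta cells (limma adjusted p = 0.11), while Tpt1 stood at 30.5 and 48.1 RPKM in transdifferentiated cells, 61.2 and 41.9 RPKM in beta cells, and 53.2 and 59.7 RPKM in delta cells. Snora28, within exon sequence of Eif5, had 17.0 and 10.8 RPKM (27 and 15 reads) in transdifferentiated cells, 2.92 and 2.31 RPKM (8 and 6 reads) in beta cells, and 13.0 and 6.53 RPKM (28 and 13 reads) in delta cells. It rose by a log2 fold change of 2.02 ± 0.32 against beta cells (limma adjusted p = 0.0027). Snora17, Snora33, Snora41, Snora57 and Snord88c share a stretch of 40 bases with another snoRNA gene elsewhere, so that their reads are uncertain. Over all snoRNA members the sum was 22.3 and 20.3 RPM in transdifferentiated cells, 8.67 and 6.99 RPM in beta cells, and 16.0 and 13.4 RPM in delta cells. This sum is a description too, since beta and delta values entered the choice of members.

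**Figure D2:**
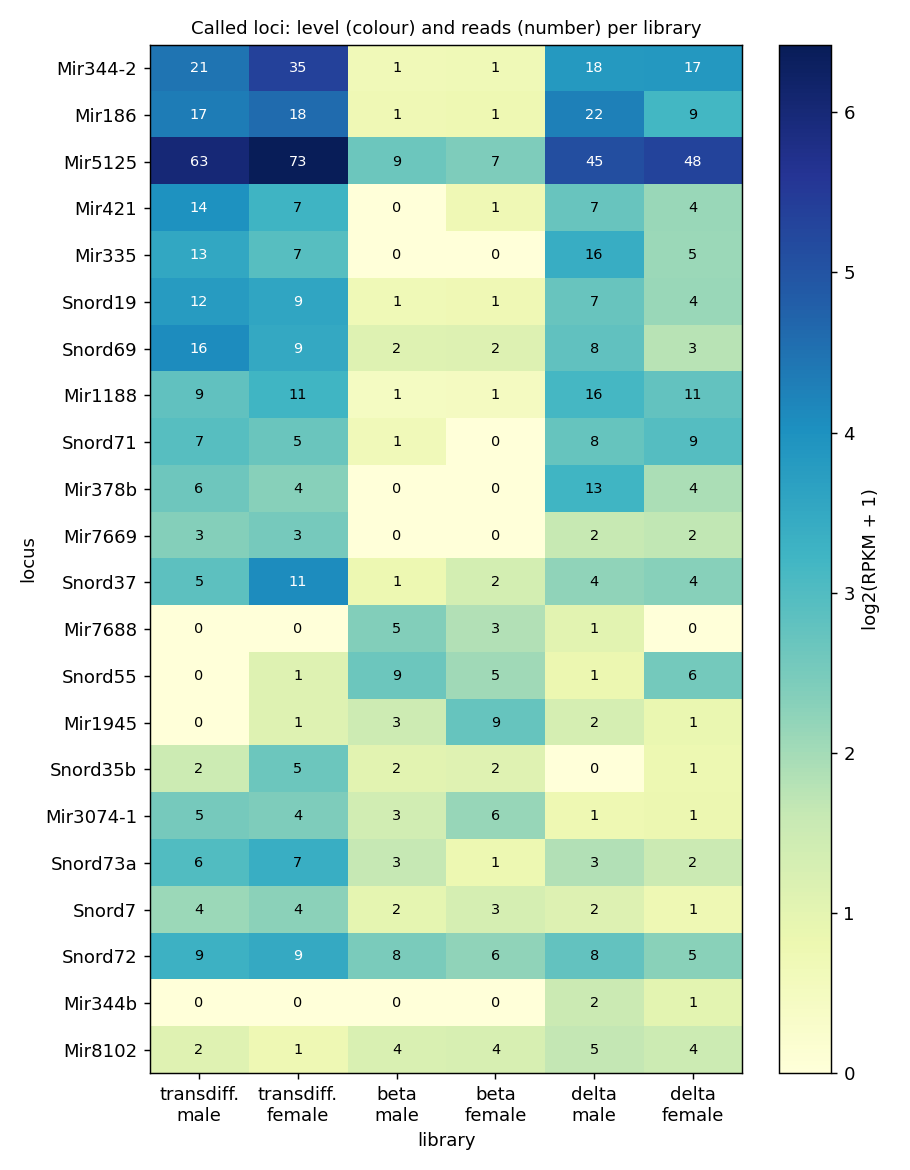
Loci named from the calls, with log2(RPKM + 1) as colour and reads as numbers, for the 6 libraries with transdifferentiated cells left of beta and delta cells. The rows from Mir344-2 to Snord37 have 0 to 9 reads in each beta library and 3 to 73 in each transdifferentiated library, and Mir7688, Snord55 and Mir1945 have 0 or 1 read in transdifferentiated cells.

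Loci lower than in beta cells numbered 3, each on few reads. Mir7688 had no read in transdifferentiated cells, 5 and 3 reads in beta cells, and 1 and 0 in delta cells (log2 fold change -2.11 ± 0.34). Snord55 had 0 and 1 read in transdifferentiated cells, 9 and 5 in beta cells, and 1 and 6 in delta cells (log2 fold change -1.79 ± 0.60). Mir1945 had 0 and 1 read in transdifferentiated cells, 3 and 9 in beta cells, and 2 and 1 in delta cells (log2 fold change -1.54 ± 0.49). Without their beta values these 3 loci would not have met the level minimum, so their differences from beta cells are a description. Only Snord55 among them had a pooled-read ratio whose counting interval excluded 1 (0.128, 0.00303 to 0.842), and it lost its call without the male transdifferentiated pool (limma adjusted p = 0.21) or without either beta pool (0.19 and 0.079). Mir1945 lost its call without the male transdifferentiated pool (limma adjusted p = 0.19) or without the female beta pool (0.17), where its log2 fold change was -0.92.

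Against beta cells, limma called 45 of the 83 members (54.2%) at an adjusted p under 0.05, beside 51% of all 13022 genes tested. Higher in transdifferentiated cells were 42 members (50.6%), beside 42.5% of all genes, and lower 3 (3.61%), beside 8.46%. The median log2 fold change was 1.05 over the members and 0.32 over all genes, with 25 higher, 2 lower and a median of 1.01 for microRNA members and 17 higher, 1 lower and a median of 1.08 for snoRNA members. After median-of-ratios scaling the median of all genes moved to -0.0017 and that of the members to 0.83, with 37 members higher and 4 lower. The share of higher genes among all called genes was then 51.6% in place of 83.4%. Shares of all 13022 genes, here and below, are without this scaling and are no measure for counts after it. Since 30 members met the level minimum through the delta libraries alone, low beta values entered the choice, as did low delta values for the 3 that met it through the beta libraries alone (Snord33, Snord35b and Mir3074-1), and these counts and medians are a description. The 23 members at 1 RPKM or more in all 4 beta and delta libraries had 13 calls against beta cells and 4 against delta cells. Counting error alone left the pooled-read ratio clear of 1 for 35 of the 42 higher members. These were already picked by their calls, so this count adds no support. In levels, 64 members (77.1%) had at least 1 RPKM in both transdifferentiated libraries, beside 94.5% of the 12414 genes that met the same minimum in beta and delta cells, and 40 loci outside the choice did so too.

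**Figure D3:**
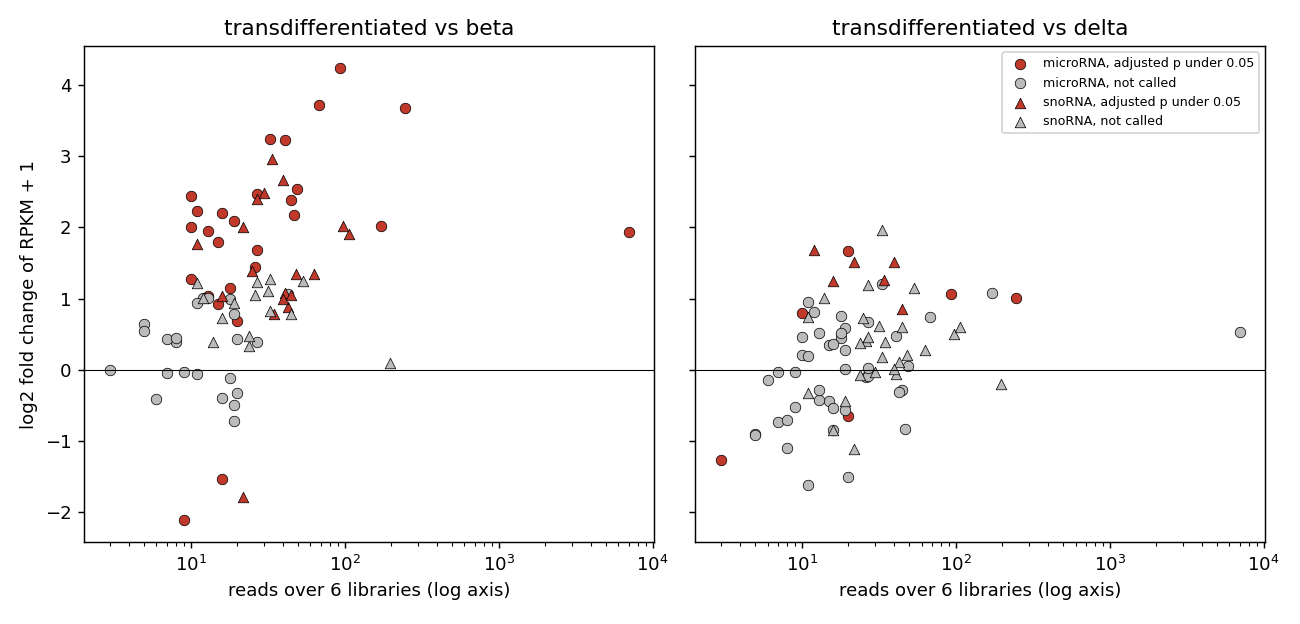
Log2 fold change of RPKM + 1 of each of the 83 members against its reads over 6 libraries (log axis), with transdifferentiated over beta cells on the left and transdifferentiated over delta cells on the right. Circles are microRNA and triangles snoRNA loci, and red symbols passed limma's adjusted p of 0.05: 45 on the left, 12 on the right, most of them on fewer than 100 reads.

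Differences from delta cells were fewer and smaller. Limma called 12 members (14.5%), beside 12.7% of all genes, with 10 higher (12.0%, beside 5.53%) and 2 lower (2.41%, beside 7.2%). The median log2 fold change was 0.28 over the members and -0.03 over all genes. Higher in transdifferentiated cells, besides Mir344-2, Mir5125, Snord19, Snord69 and Mir7669, were Snord35b, Mir3074-1, Snord73a, Snord7 and Snord72. The transdifferentiated and delta libraries did not overlap for any of these 10 loci. With 2 libraries a group a call nearly requires this, so it adds no support. The 2 comparisons share the transdifferentiated libraries, so their calls are not independent of each other.

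Snord73a, in an intron of the ribosomal protein gene Rps3a1, had 7.04 and 9.44 RPKM (6 and 7 reads) in transdifferentiated cells, 2.05 and 0.719 RPKM (3 and 1 reads) in beta cells, and 2.60 and 1.88 RPKM (3 and 2 reads) in delta cells. It rose against both beta cells (log2 fold change 2.0 ± 0.28, limma adjusted p = 0.0019) and delta cells (1.51 ± 0.28, limma adjusted p = 0.018), the delta call being lost without either transdifferentiated pool (0.052 and 0.10) or without the female delta pool (0.11). Snord7 had 4 reads in each transdifferentiated library, 2 and 3 in beta cells and 2 and 1 in delta cells, and Snord72, in an intron of Rpl37, had 9 in each transdifferentiated library, 8 and 6 in beta cells and 8 and 5 in delta cells. Both passed against delta cells (log2 fold change 1.24 ± 0.20 for Snord7 and 0.86 ± 0.19 for Snord72, limma adjusted p = 0.0098 and 0.030), but the counting intervals of their ratios, 0.892 to 21.7 and 0.894 to 4.28, include 1. Snord7 lost the call without the female transdifferentiated or female delta pool, and Snord72 without either transdifferentiated pool or the female delta pool.

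Snord35b had 2 and 5 reads in transdifferentiated cells, 2 and 2 in beta cells, and 0 and 1 in delta cells (log2 fold change against delta cells 1.68 ± 0.40, limma adjusted p = 0.040), and lost the call without any 1 library except the male transdifferentiated pool, its log2 fold change being 1.11 without the female one. Mir3074-1 had 4.69 and 4.32 RPKM (5 and 4 reads) in transdifferentiated cells, 1.64 and 3.45 RPKM (3 and 6 reads) in beta cells, and 0.693 and 0.750 RPKM (1 read each) in delta cells. Its call against delta cells (log2 fold change 1.68 ± 0.24, limma adjusted p = 0.0067) held without each library in turn, but like Snord35b it was selected on its beta values alone, so that low delta values entered the choice. The locus lies opposite Mir24-1 and within exon sequence of 2010111I01Rik on the other strand, and without a stated strand setting these reads cannot be assigned to one of them. Mir8102 had 2 and 1 reads in transdifferentiated cells, 4 and 4 in beta cells, and 5 and 4 in delta cells (log2 fold change against delta cells -0.66 ± 0.16, limma adjusted p = 0.045), with a ratio interval of 0.0809 to 1.86. It lost the call without any 1 library except the male transdifferentiated pool.

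By position, 49 of the 83 members lay in an intron of a gene on the same strand, 10 within an exon, 6 partly in an exon, 8 opposite a gene on the other strand and 10 outside any other gene (GENCODE M21). For 61 members the containing gene, 50 different genes in all, had a value in the table, and for 59 it passed the level filter. Against beta cells 18 loci rose with their containing gene, 11 rose where the gene was not called, and 3 rose where the gene fell: Snord37 in Eef2, Snord32a in Rpl13a and Snora41 in Eef1b2. The locus had the larger log2 fold change in 48 of the 59 pairs against beta cells (21 of 30 microRNA, 27 of 29 snoRNA loci) and in 42 of 59 against delta cells, a description in which loci of low level and their well covered genes differ in noise. Low beta values also entered the choice of the loci that met the level minimum through the delta libraries alone. The containing genes were not chosen in this way, so locus and gene are not on a like footing. Among the 48 containing genes tested, 20 rose and 6 fell against beta cells, beside 42.5% and 8.46% of all genes, shares without scaling. After median-of-ratios scaling 11 of the containing genes rose and 14 fell.

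**Figure D4:**
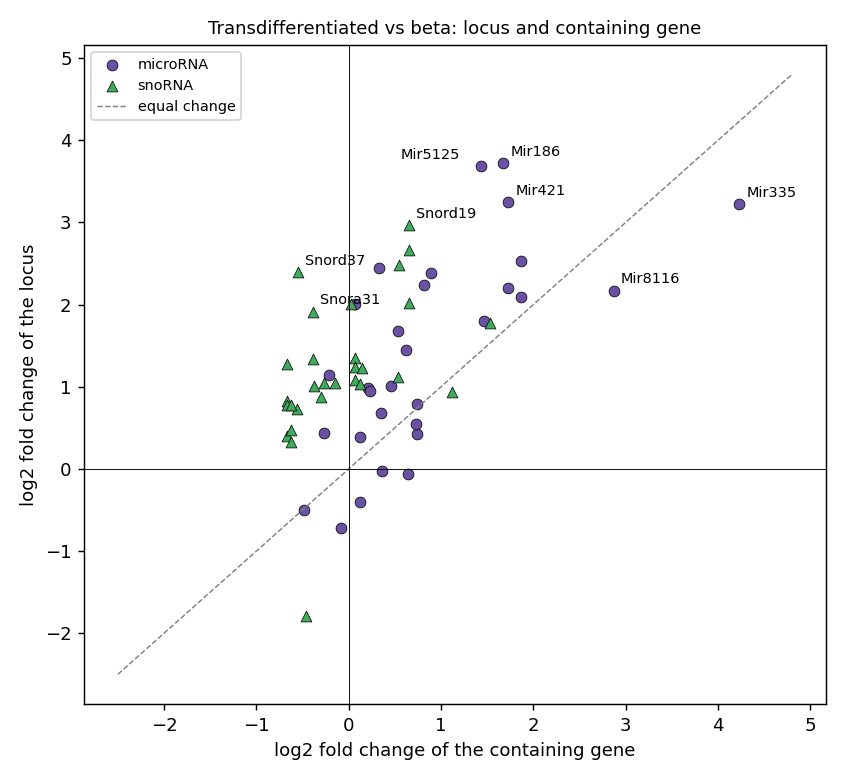
Log2 fold change of RPKM + 1, transdifferentiated over beta cells, of 59 loci (vertical axis) against that of the gene that contains them (horizontal axis), with circles for microRNA and triangles for snoRNA loci. The dashed line marks equal change: 48 loci lie above it, and Mir335 and Mir8116 are below it.

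Ribosomal protein genes contained 13 of the snoRNA members. Of these 13 loci 5 rose and 1 fell against beta cells (median log2 fold change 1.05), and of the 20 other snoRNA members 12 rose and none fell (median 1.17), beside 42.5% of all genes higher and 8.46% lower. Mir8116, in an intron of the acetylcholinesterase gene Ache, had 6 reads in each transdifferentiated library, 2 and 0 in beta cells and 20 and 13 in delta cells. Its log2 fold change was 2.17 ± 0.32 against beta cells, a description because it met the level minimum through its delta values alone. Ache rose against beta cells (log2 fold change 2.87 ± 0.18, limma adjusted p = 0.00019). Against delta cells Ache fell by 1.64 ± 0.18 on the log2 scale (limma adjusted p = 0.0030), and the log2 fold change of Mir8116 was -0.83 ± 0.32 (limma adjusted p = 0.15).

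Genes that make and use microRNAs were also compared. Of 21 listed genes 20 were tested, and 13 rose and none fell against beta cells (median log2 fold change 0.72). Without scaling, 42.5% of all genes were higher, with a median of 0.32 over all genes. After median-of-ratios scaling 10 of the listed genes rose and 1 fell. The largest increase was that of Zcchc11, a terminal uridyltransferase, with 20.3 and 17.1 RPKM in transdifferentiated cells, 2.84 and 4.01 RPKM in beta cells, and 24.4 and 21.5 RPKM in delta cells (log2 fold change against beta cells 2.16 ± 0.17, limma adjusted p = 0.00026). The Argonaute gene Ago3 (1.70 ± 0.14), the silencing scaffold Tnrc6a (1.59 ± 0.20) and the Drosha cofactor Ddx5 (1.36 ± 0.13) also rose (limma adjusted p from 0.00033 to 0.0013), as did Dicer1 (0.68 ± 0.17, limma adjusted p = 0.014). Dicer1 lost that call without either transdifferentiated pool (0.068 and 0.054) and after scaling (0.094). Drosha was at 11 and 12.1 RPKM in transdifferentiated cells, 9.23 and 13.1 RPKM in beta cells and 13.6 and 14.7 RPKM in delta cells (log2 fold change against beta cells 0.06 ± 0.17, limma adjusted p = 0.77). Against delta cells limma called none of the 20 genes, with 1 at an unadjusted p under 0.05.

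Proteins of the snoRNA particles showed no common direction. Among 16 genes 2 rose and 3 fell against beta cells, beside 42.5% and 8.46% of all genes, shares without scaling. Those that rose were the pseudouridine synthase Dkc1 (log2 fold change 0.83 ± 0.11, limma adjusted p = 0.0013) and the C/D core protein Nop58 (0.67 ± 0.11, limma adjusted p = 0.0031). The H/ACA core protein Nhp2 (-0.84 ± 0.16, limma adjusted p = 0.0060), the methyltransferase fibrillarin, Fbl (-0.72 ± 0.14, limma adjusted p = 0.0056), and Rrp9 (-0.46 ± 0.13, limma adjusted p = 0.027) fell. After median-of-ratios scaling 2 rose and 8 fell, and Rrp9 lost its call without either transdifferentiated pool (0.10 each) or the female beta pool (0.074). Against delta cells limma called none, with 1 at an unadjusted p under 0.05.

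Long non-coding RNAs that host microRNAs or snoRNAs were tested for 21 of 28 listed genes. Of these, 11 rose and none fell against beta cells (median log2 fold change 0.58). Without scaling, 42.5% of all genes were higher, and their median was 0.32. After scaling, 9 of the host RNAs rose and 1 fell. Meg3 (3.94 ± 0.24), Snhg11 (2.55 ± 0.16) and Rian (1.87 ± 0.21) rose most (limma adjusted p from 0.00016 to 0.00086). Snhg11 also rose against delta cells, at 8.91 and 8.90 RPKM in transdifferentiated cells, against 0.767 and 0.625 RPKM in beta cells and 4.67 and 3.20 RPKM in delta cells (log2 fold change 1.02 ± 0.16, limma adjusted p = 0.010), a call lost without either transdifferentiated pool (0.058 and 0.063) or the female delta pool (0.062). The other call against delta cells was Snhg17 (0.45 ± 0.11, limma adjusted p = 0.044), which had an adjusted p of 0.056 with the pool as a block in limma and of 0.16 to 0.26 without any 1 transdifferentiated or delta library.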

How the data were processed

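RNA of 6 libraries, 2 for each of 3 sorted islet populations, was prepared with the TruSeq RNA v2 kit, per the labels' protocols. The authors deposited 1 table of RPKM values, and the submitters' processing notes name STAR 2.5, featureCounts, edgeR 3.14.0 and the build GRCm38.p4. The annotation, the strand setting and the handling of reads with several positions are not given in the sources used here. The loci, lists and tests were chosen with earlier results of these data known. Symbols turned into dates (27) were left out.

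RPKM times the exon length of GENCODE M21 gave reads: 83.3% to 86.4% of values under 50 reads per library came within 0.01 of a whole number, and every member value within 4.24e-07. No count test was run on these reads. The values were log2(RPKM + 1), so that fold changes of low genes are understated, and limma 3.58.1 (R 4.3.3, trend) was fitted to the 13022 genes with at least 1 RPKM in 2 of the 6 libraries, with all 3 groups in 1 model and Benjamini-Hochberg adjustment over all of them. The script was tested on simulated data. Exact intervals came from scipy 1.17.1. The 3 populations of a replicate number come from the same islets, per the series text, and deviations of same-numbered libraries correlated over 13022 genes (r = 0.47 for transdifferentiated with beta, 0.36 for transdifferentiated with delta, 0.24 for beta with delta), so the pool was entered as a block in an alternative fit.

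Named were the called members (at most 12 of largest fold change per direction and comparison), the best covered members, Mir344-2, the loci nearest the level minimum, a list of islet and neural microRNAs, containing genes, and called members of 3 gene lists. Mir341, Mir374b, Mir453, Snora23, Snord32a, Mir370, Mir382 and Mir3070a were added after their values were seen. Alternatives varied the pseudocount, filter, scaling, block, choice of members and each library. A few containing genes are not reported here.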

Additional observations from a re-analysis of the deposited data

Results flagged for a closer look

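Mir6236 differed from delta cells in opposite directions in the pools. Transdifferentiated minus delta, on the scale of log2(RPKM + 1), was -0.50 in the male pool (511 RPKM in transdifferentiated and 724 RPKM in delta cells) and 1.57 in the female pool (1718 RPKM in transdifferentiated and 578 RPKM in delta cells). The counting intervals of the reads did not overlap within either pool, but with 1 library a group and pool the difference between pools was not tested, and sex and pool cannot be told apart.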

How the results depend on the processing

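The count of called genes moved most when a library was left out: 4120 to 7047 against beta cells (6642 with all 6, and 4120 without the male transdifferentiated pool), and 502 to 2075 against delta cells (1657 with all 6; 781 and 669 without the male and female transdifferentiated pool, 726 and 502 without the male and female delta pool). Called members ranged from 38 to 52 against beta cells (45) and from 3 to 15 against delta cells (12), the 3 being without the female delta pool. With the replicate block, 52 and 16 members and 7022 and 1925 genes were called. Among the members and other genes named here, Prkra and Snhg17 lost a call by it, with Mir3070a not followed through the alternatives. Against delta cells, a pseudocount of 0.1 RPKM gave 7 called members, no filter 4, a member minimum of 2 RPKM 7, microRNA loci alone 6, snoRNA loci alone 6, members at 1 RPKM in all 4 libraries 4, and calls with a counting interval clear of 1 gave 7. These last 2 settings were chosen after seeing the data. Against beta cells, microRNA loci alone gave 27, snoRNA loci alone 18 and members at 1 RPKM in all 4 libraries 13, by the smaller number of loci. Settings that changed only the choice of loci kept the main fit, which called 51% of all genes against beta and 12.7% against delta cells. No share of all genes is given here for the pseudocount and no-filter settings, so those counts do not compare members with all genes. Members with 1 RPKM in both transdifferentiated libraries were 41 among those with at least 20 reads, 34 microRNA and 30 snoRNA loci.

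Named calls kept their side of the threshold in 169 of 179 alternatives against beta cells, with losses for Snord55 and Mir1945 only, and in 91 of 141 against delta cells, where Mir3074-1 lost none. Alternatives in which a locus no longer passed the level filter were left out of both counts and not counted as lost. Beta values entered the choice of the loci selected through the delta libraries alone and of those lower than in beta cells. The same holds for delta values and Mir3074-1, Snord35b and Mir344b. Both counts include such loci and are a description. No named member changed sign, and of the other genes Prkra, higher than in beta cells with all libraries, was at a log2 fold change of -0.044 after median-of-ratios scaling. Besides Mir344-2, delta calls lost without the level filter were Snord35b (limma adjusted p = 0.14), Snord69 (0.12), Mir8102 (0.12), Snord72 (0.097), Snord73a (0.083), Snord7 (0.052) and Mir5125 (0.052). A pseudocount of 0.1 RPKM lost Snord35b (0.077), Mir8102 (0.065) and Snord73a (0.051), and one of 5 RPKM lost Snord35b (0.056). Snord55 and Mir1945 lost their beta calls without the filter and at 0.1 RPKM, Snord55 also at 5 RPKM. Most calls against delta cells rest on under 50 reads, and leaving out 1 library of 2 leaves the lone one assumed to vary like the other groups.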
